A study of Mus musculus with 6 samples.

Results

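The 10 genes described here encode core parts of the Notch pathway, namely 3 receptors (Notch1, Notch2, Notch3), 2 ligands (Jag1, Dll1), a receptor-modifying enzyme (Lfng), the nuclear DNA-binding factor (Rbpj) and 3 target genes (Hes1, Hey1, Heyl). They were picked by symbol from the deposited table of 21878 genes, where all 10 have a row. RNA-seq was made from NIH3T3, an immortalised mouse embryo fibroblast line, with radiation injury in every sample, per the labels. Cells treated with exosomes, small vesicles that the series title describes as plasma-derived, were compared with cells that received PBS (phosphate-buffered saline). Each group has 3 libraries, at 72 h. The labels give no radiation dose and no source species of the plasma. An unirradiated group was not analysed here. The labels do not say whether replicate libraries are separate cultures, so p-values reflect library-to-library spread that may be technical.

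Notch receptors are membrane proteins that are activated by ligands on neighbouring cells. A metalloprotease and then gamma-secretase cut the bound receptor, and its freed intracellular domain enters the nucleus, where it joins RBPJ and Mastermind proteins to switch on Hes and Hey genes, which encode transcriptional repressors. Without that domain RBPJ can hold the same genes repressed together with corepressors. In fibroblasts and other mesenchymal cells the pathway is known for roles in differentiation and in signalling between stromal and vascular cells.

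Values per library were read as FPKM, a fragment count divided by transcript length and by the size of the library. A gene was tested when it reached 1 FPKM in at least 3 of the 6 libraries, and called raised or lowered at an adjusted p under 0.05 (limma on log2(FPKM + 1), Benjamini-Hochberg over 10274 genes). Counted reads per library were estimated at 19200000 to 22000000 with exosomes and 18800000 to 20100000 with PBS. Correlations across genes were 0.9944 to 0.997 within groups and 0.9767 to 0.9852 between them. Fibroblast markers were high in all libraries, with summed levels of 7278 to 7576 FPKM with exosomes and 6295 to 6581 FPKM with PBS. Singly they went both ways. Col1a1, Col1a2, Col3a1, Pdgfra and Sparc were raised, Fn1, Pdgfrb and S100a4 were lowered, and Thy1 and Vim were not called. Endothelial markers summed to 0.228 to 0.384 FPKM with exosomes and 0.395 to 0.653 FPKM with PBS, and Cldn5 was listed at 0 throughout. Leukocyte markers summed to 1.85 to 2.56 FPKM with exosomes and 3.67 to 4.83 FPKM with PBS. Most of that gap was in Csf1r, at a mean of 0.295 FPKM with exosomes and 1.92 FPKM with PBS, while Cd68 averaged 1.81 FPKM with exosomes and 1.90 FPKM with PBS (limma adjusted p = 0.878). Cd3e and Tyrobp were listed at 0 in all 6 libraries. The part of these markers in the results below was not tested.

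Of the 10 members, 7 were tested. Notch3 was raised, Hes1 and Rbpj were lowered, and Notch1, Notch2, Jag1 and Lfng were not called. These 3 calls are 42.9% of the tested members, close to the 43.8% of all tested genes that were called. Raised genes made up 25.4% and lowered genes 18.4% of all tested. Hes1 had the lowest log2 change of the 7, below that of all but 0.457% of tested genes, and Notch3 the highest, above that of 98.2%. Dll1, Hey1 and Heyl were under the filter in both groups. For Notch3 and Hes1 the group with the higher level met the filter alone.

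**Figure D1:**
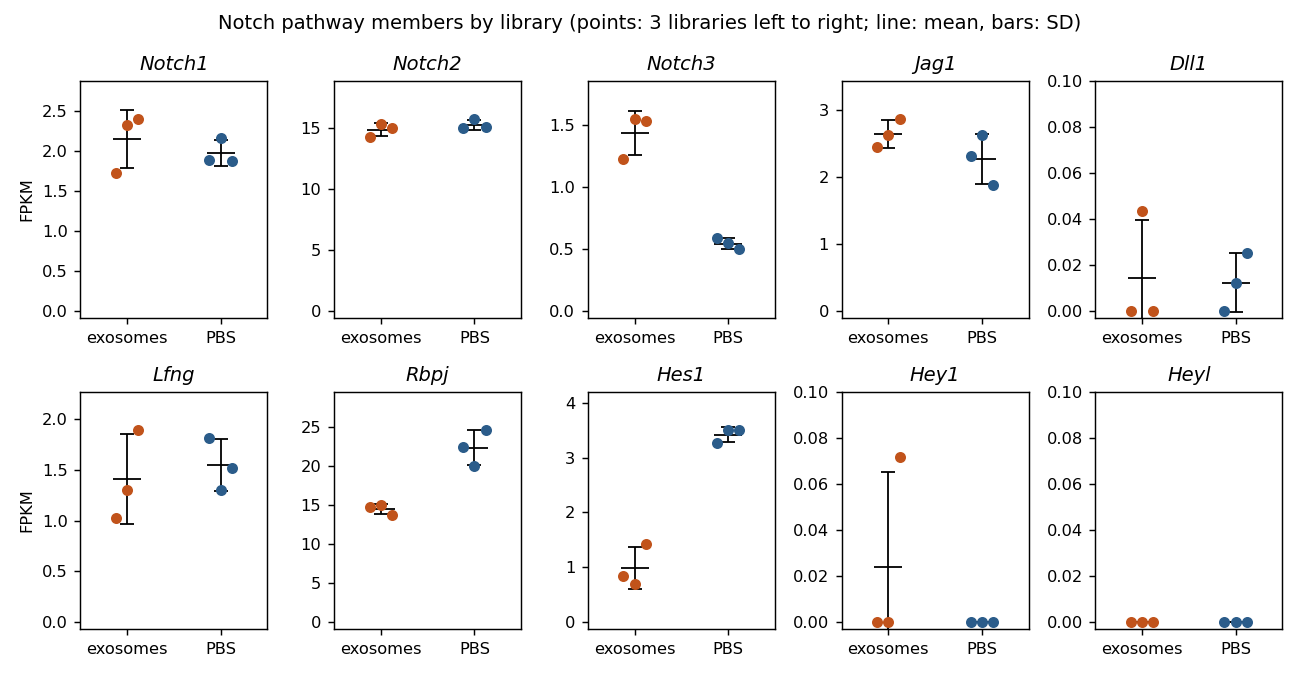
FPKM of each member (vertical axis, its own scale per panel) in the 3 libraries of each group, with the mean as a line and the SD as bars, cut at the lower edge of the axis. Notch3 lies higher, and Rbpj and Hes1 lower, in all 3 exosome libraries than in any PBS library.

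Notch3 was the only receptor called. Notch3 (Entrez 18131), a receptor best known from smooth muscle cells and pericytes, stood at 1.23, 1.55 and 1.53 FPKM in exosome replicates 1 to 3 and at 0.592, 0.549 and 0.501 FPKM in PBS replicates 1 to 3. All 3 exosome libraries were above all 3 PBS libraries, as in 32% of tested genes, and in 55.6% the groups lay apart in either direction. The mean of 1.44 ± 0.178 FPKM with exosomes was 2.63 times that with PBS, 0.547 ± 0.0455 (SD, n = 3 each). The log2 change was 0.65 ± 0.08 (SE, limma adjusted p = 0.000206). Notch3 passed the filter only through its exosome libraries, so its call is given as a description. Because its level is near the pseudocount of 1, the size of the log2 change depends on that setting, and it was 1.24 with a pseudocount of 0.1 (adjusted p = 0.000166) and 1.01 with values rescaled to equal sums (adjusted p = 7.4e-05). In the authors' deposited table, which rests on counts, Notch3 had means of 218 normalized counts with exosomes and 90.7 with PBS, a 2.41-fold rise (adjusted p = 1.9e-11). Summed smooth muscle and pericyte markers without Notch3 overlapped between groups, at 188 to 205 FPKM with exosomes and 182 to 219 FPKM with PBS. Acta2 made up most of that sum, at a mean of 142 FPKM with exosomes and 134 FPKM with PBS (limma adjusted p = 0.456). Of the other markers Cspg4 was lowered, at 4.49 FPKM with exosomes and 7.46 FPKM with PBS (adjusted p = 0.000783), and so was Tagln, at 45.6 FPKM with exosomes and 53.0 FPKM with PBS (adjusted p = 0.00469). Cnn1 was not called, at 1.54 FPKM with exosomes and 1.19 FPKM with PBS (adjusted p = 0.0984). Des and Abcc9, not tested, averaged 0.174 and 0.00475 FPKM with exosomes and 0.0942 and 0.0135 FPKM with PBS. Rgs5 and Myh11, which mark pericytes and mature smooth muscle, averaged 0.132 and 0.0334 FPKM with exosomes and 0.0946 and 0.0165 FPKM with PBS, and Kcnj8 was listed at 0.

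Notch2 was by far the most abundant receptor in both groups. It measured 14.3, 15.3 and 15.0 FPKM with exosomes and 14.9, 15.7 and 15.0 FPKM with PBS. The groups overlapped, and the log2 change was −0.034 ± 0.049 (SE, limma adjusted p = 0.591). Notch1, the founding mammalian receptor, measured 1.73, 2.32 and 2.39 FPKM with exosomes and 1.88, 2.16 and 1.87 FPKM with PBS. Its groups also overlapped, with exosome replicate 1 the lowest of all 6 libraries, and the log2 change was 0.078 ± 0.093 (SE, adjusted p = 0.516). It was 0.18 without exosome replicate 1 (adjusted p = 0.107) and 0.020 without exosome replicate 3 (adjusted p = 0.889). A p above the threshold does not show that these levels were equal. Notch4, an endothelial receptor from the pathway list, was at 0.0449 ± 0.0133 FPKM with exosomes and 0.0457 ± 0.0124 FPKM with PBS.

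The share of Notch3 among the receptors was higher in every exosome library than in any PBS library, while the summed receptor level overlapped between groups. The 4 receptors, Notch4 included, measured 18.5 ± 1.06 FPKM with exosomes and 17.8 ± 0.566 FPKM with PBS. FPKM is scaled to length, so levels of different genes can be set side by side. Notch3 made up 7.14%, 8.06% and 8.10% of the sum with exosomes and 3.39%, 2.98% and 2.87% with PBS. The share of Notch2 was 80.4 ± 1.94% with exosomes and 85.6 ± 0.597% with PBS (SD, n = 3 each), and that of Notch1 11.6 ± 1.38% with exosomes and 11.1 ± 0.556% with PBS. The ratio of Notch3 to Notch2 within a library averaged 0.0967 ± 0.00891 with exosomes and 0.0360 ± 0.00323 with PBS. The ratio of Notch3 to Notch1 averaged 0.674 ± 0.0370 with exosomes and 0.279 ± 0.0315 with PBS. For each ratio the groups did not overlap. Both ratios carry the Notch3 difference given above and add no separate test of it.

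**Figure D2:**
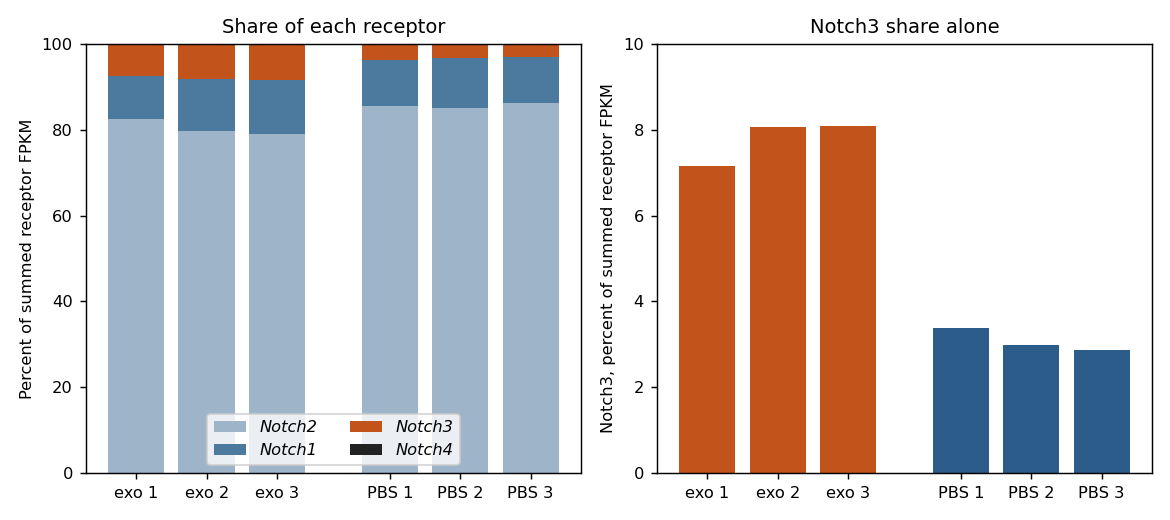
Left, the share of each receptor in the summed FPKM of Notch1 to Notch4 (percent) in every library, exosomes then PBS; right, the share of Notch3 alone on a scale from 0 to 10 percent. Notch2 makes up most of every bar, and the Notch3 share is 7.14% to 8.10% in exosome libraries and 2.87% to 3.39% in PBS libraries. Notch4 is too small to be visible.

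Of the canonical ligands, Jag1 was the only one above 1 FPKM. Jag1, a membrane ligand of the Jagged type, measured 2.45, 2.64 and 2.86 FPKM with exosomes and 2.32, 2.63 and 1.88 FPKM with PBS. PBS replicate 3 was the lowest library, and PBS replicate 2 lay within the exosome range. The log2 change was 0.16 ± 0.09 (SE, limma adjusted p = 0.178). It was 0.071 without PBS replicate 3 (adjusted p = 0.523) and 0.24 without PBS replicate 2 (adjusted p = 0.0542). Jag1 made up 92.8 ± 1.41% of the summed FPKM of Jag1, Jag2, Dll1, Dll3 and Dll4 with exosomes and 88.2 ± 4.99% with PBS. Dll1, a ligand of the Delta type, was listed at 0, 0.0436 and 0 FPKM with exosomes and at 0, 0.0121 and 0.0254 FPKM with PBS. The steps of the authors' deposited group means resolve into 6 counted reads over the 3 exosome libraries and 5 over the 3 PBS libraries. Dll1 was not tested.

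Lfng encodes lunatic fringe, a Golgi enzyme that extends O-fucose on receptors and so alters which ligands they answer to. It measured 1.02, 1.31 and 1.89 FPKM with exosomes and 1.82, 1.30 and 1.52 FPKM with PBS. The exosome libraries spread on either side of the PBS libraries, and the log2 change was −0.092 ± 0.13 (SE, limma adjusted p = 0.584), turning to 0.025 without exosome replicate 1. Lfng held 20.1 ± 5.05% of the summed FPKM of the 3 fringe genes with exosomes and 19.7 ± 2.18% with PBS. Rfng held most of the rest, at 5.52 ± 0.425 FPKM with exosomes and 6.27 ± 0.259 FPKM with PBS (limma adjusted p = 0.0702). It was lowered with values rescaled to equal sums, as TPM (adjusted p = 0.0386), with median ratio scaling (0.033) and in the authors' deposited table (0.0205).

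Rbpj (Entrez 19664), the DNA-binding factor through which all Notch receptors act, was lowered. It measured 14.8, 15.0 and 13.8 FPKM with exosomes and 22.4, 20.1 and 24.6 FPKM with PBS. Every exosome library was below every PBS library, as in 23.5% of tested genes, and the PBS libraries spread more widely. The exosome mean of 14.5 ± 0.634 FPKM was 0.648 of the PBS mean, 22.4 ± 2.27 FPKM (SD, n = 3 each). The log2 change was −0.59 ± 0.07 (SE, limma adjusted p = 0.000229), larger in size than that of 95.3% of tested genes. The authors' deposited table gives means of 2390 normalized counts with exosomes and 3755 with PBS (fold 0.636, adjusted p = 5.18e-07). Rbpj has 2 annotated pseudogenes, Rbpj-ps1 and Rbpj-ps3, and no source used here gives how reads shared with them were assigned, so its level is uncertain. Per library, Notch2 was at 0.965, 1.02 and 1.08 times the level of Rbpj with exosomes and at 0.666, 0.780 and 0.610 times with PBS.

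Among the target genes only Hes1 was expressed above 1 FPKM in any library, and it was lowered. Hes1 (Entrez 15205), a basic helix-loop-helix repressor that is also induced by signals other than Notch, measured 0.847, 0.694 and 1.42 FPKM with exosomes and 3.26, 3.50 and 3.50 FPKM with PBS. The groups lay far apart, and exosome replicate 3 was the highest of its group. The exosome mean of 0.988 ± 0.384 FPKM was 0.289 of the PBS mean, 3.42 ± 0.138 FPKM (SD, n = 3 each). The log2 change was −1.17 ± 0.12 (SE, limma adjusted p = 0.000103), and −1.75 with a pseudocount of 0.1 (adjusted p = 0.00031). Hes1 passed the filter through its 3 PBS libraries and 1 exosome library. Its PBS libraries alone met the filter, so its call is also given as a description. The authors' deposited table gives means of 35.7 normalized counts with exosomes and 128 with PBS (fold 0.280, adjusted p = 2.87e-15). In bulk RNA, fewer cells that express a gene and less RNA per cell cannot be told apart.

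Hey1 and Heyl, repressors related to Hes1 and used as readouts of Notch signalling in vascular cells, were close to absent from the libraries. Hey1 was listed at 0, 0 and 0.0716 FPKM with exosomes and at 0 in all 3 PBS libraries. Its group means in the authors' deposited table resolve into 3 counted reads per group, all from replicate 3 with exosomes, and 2 from replicate 1 and 1 from replicate 2 with PBS. The FPKM of 0 in PBS libraries therefore does not mean that no read was counted. Heyl had 0 FPKM and 0 counted reads in all 6 libraries. Of the target genes on the wider list, Hes5 and Nrarp were listed at 0 in all libraries, Hes7 averaged 0.0274 ± 0.0143 FPKM with exosomes and 0.0552 ± 0.0956 FPKM with PBS, and Hey2 0.00572 FPKM with exosomes and 0.00587 FPKM with PBS. Hes1 made up 95.1 ± 2.24% of the summed FPKM of the 6 Hes and Hey targets with exosomes and 98.2 ± 2.66% with PBS.

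**Figure D3:**
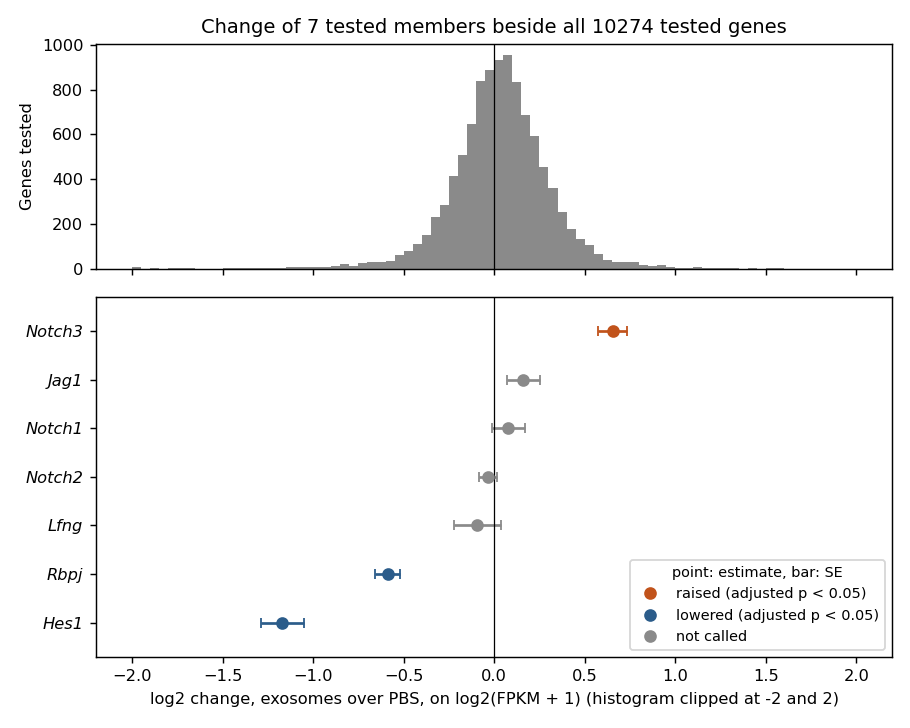
Top, the distribution of log2 changes (exosomes over PBS, on log2(FPKM + 1)) of all 10274 tested genes; bottom, the 7 tested members on the same axis, with points as estimates and bars as SE. Notch3 at 0.65, Rbpj at −0.59 and Hes1 at −1.17 lie in the tails, while Jag1, Notch1, Notch2 and Lfng lie between −0.092 and 0.16.

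The order of levels differed between groups. With exosomes Notch2 and Rbpj came first, and their ranges overlapped. Jag1 and Notch1 followed, then Notch3, Lfng and Hes1, neighbours whose ranges overlapped. With PBS the order was Rbpj, Notch2, Hes1, Jag1, Notch1, Lfng and Notch3. There the ranges of Jag1 and Notch1 overlapped and those of the other 5 neighbouring pairs did not. Hes1 was thus at rank 7 with exosomes and at rank 3 with PBS, and Notch3 at rank 5 with exosomes and at rank 7 with PBS. Hey1, Dll1 and Heyl were last in both groups.

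Hes1 had the smallest adjusted p of the members. The tested genes whose values ran most like it over the 6 libraries, by the mean absolute difference of centred log2(FPKM + 1) values, were Fam162a (0.0930), Spry4 (0.0968), Dusp5 (0.103), Noct (0.105) and Egln3 (0.112). Spry4 and Dusp5 encode feedback inhibitors of growth factor and MAP kinase signalling, and Egln3 a prolyl hydroxylase of hypoxia-inducible factors. Fam162a measured 45.4 ± 3.56 FPKM with exosomes and 98.3 ± 1.21 FPKM with PBS, Spry4 2.83 ± 0.249 FPKM with exosomes and 7.19 ± 0.0423 FPKM with PBS, and Dusp5 7.26 ± 0.529 FPKM with exosomes and 16.3 ± 0.525 FPKM with PBS. Likeness here rests mainly on the difference between the groups.

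Promoter windows, 250 bases before to 50 bases after an annotated start, were at hand from RefSeq (GRCm38.p6, not the build named by the submitters) for 7 of the 10 members in 9 windows. The target genes Hes1, Hey1 and Heyl had no window at hand, so their promoters were not searched. The windows of Rbpj and Notch3 are shown because both genes were called, and that of Lfng because it holds the longest motif searched. TGGGAA, the core that RBPJ binds, was searched on both strands together with its longer form GTGGGAA, which contains it, and with CACNAG, the N box that Hes proteins bind. TGGGAA was found in 3 of the 9 windows (both overlapping windows of Rbpj, and Lfng), GTGGGAA in 1 (Lfng) and CACNAG in 5. Among 32841 such windows of all genes, 25.6% hold TGGGAA, 6.38% GTGGGAA and 42.5% CACNAG. In the first Rbpj window (chr5:53590096-53590395, plus strand) the matches begin 149 and 65 bases before the start. In that of Lfng (chr5:140607091-140607390, plus strand) they begin 135 and 108 bases before it. In that of Notch3 (chr17:32166841-32167140, minus strand) no TGGGAA was found, and CACNAG matches begin 204 and 159 bases before the start. A match is a description of letters and no evidence of binding. Capitals mark TGGGAA or its reverse TTCCCA in Rbpj and Lfng, and CACNAG or its reverse CTNGTG in Notch3.
Rbpj: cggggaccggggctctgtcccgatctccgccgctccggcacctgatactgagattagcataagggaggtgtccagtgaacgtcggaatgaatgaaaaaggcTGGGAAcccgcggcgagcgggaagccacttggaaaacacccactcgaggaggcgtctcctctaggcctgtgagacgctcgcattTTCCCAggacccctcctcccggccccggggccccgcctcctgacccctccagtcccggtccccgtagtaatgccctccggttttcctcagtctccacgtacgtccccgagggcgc
Lfng: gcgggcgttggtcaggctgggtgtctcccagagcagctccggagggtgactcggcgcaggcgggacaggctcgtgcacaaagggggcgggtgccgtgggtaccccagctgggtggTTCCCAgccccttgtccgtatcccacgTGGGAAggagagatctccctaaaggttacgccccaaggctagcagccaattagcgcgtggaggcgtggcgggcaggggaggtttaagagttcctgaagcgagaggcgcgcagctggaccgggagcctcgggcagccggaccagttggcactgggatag
Notch3: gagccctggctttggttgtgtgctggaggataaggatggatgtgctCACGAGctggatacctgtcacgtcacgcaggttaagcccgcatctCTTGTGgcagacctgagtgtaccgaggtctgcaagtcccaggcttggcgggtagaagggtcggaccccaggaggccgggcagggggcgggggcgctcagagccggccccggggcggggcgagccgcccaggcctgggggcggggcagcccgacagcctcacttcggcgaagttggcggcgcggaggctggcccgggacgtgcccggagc

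Most other genes of the pathway were not called. A list of 76 other pathway genes was sorted by role, and 57 were tested. Of these 14 were raised, 6 lowered and 37 not called, so 35.1% were called against 43.8% of all tested genes. The median log2 change was 0.037, beside 0.036 over all tested genes. With libraries scaled by median ratios, the split among these genes was 11 raised and 12 lowered, and among all tested genes 2250 raised and 2276 lowered, against 2612 and 1889 with the values as deposited. The authors' deposited table calls 7 raised and 12 lowered of 72 with an adjusted p. Of all its genes 12.4% are raised and 13.5% lowered, and 25.9% are called in either direction. Of the 20 genes called here, 13 are called there in the same direction. The others, Epn1, Dnm2, Pofut1, Psenen, Ncstn, Maml2 and Numbl, were raised here and not called there.

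Outside the canonical ligands, Dlk1 was lowered. Dlk1, a membrane protein related to Delta that is known to hold back fat cell differentiation and to dampen Notch signalling in some settings, was far more abundant than any member, at 456 ± 35.7 FPKM with exosomes and 572 ± 55.6 FPKM with PBS (log2 change −0.33 ± 0.08 SE, limma adjusted p = 0.009). Among 5 tested genes of ligand uptake, 3 were raised and 1 was lowered. Over all tested genes 25.4% were raised and 18.4% lowered, and counts from so few genes per role were not tested against that. Mib2, a ubiquitin ligase for ligands, measured 4.90 ± 0.119 FPKM with exosomes and 3.39 ± 0.0378 FPKM with PBS (log2 change 0.43 ± 0.06 SE, adjusted p = 0.000319). Its relative Mib1 was the gene that was lowered, at 10.9 ± 0.391 FPKM with exosomes and 12.5 ± 0.517 FPKM with PBS (adjusted p = 0.0176; the call ended without PBS replicate 1, at 0.0735, and without exosome replicate 3, at 0.0639). Epn1, an endocytic adaptor, and Dnm2, the vesicle-cutting GTPase dynamin, rose by 0.24 and 0.19 on the log2 scale. Both calls ended without PBS replicate 1 (adjusted p = 0.0562 and 0.059), and that of Dnm2 also without exosome replicate 2 (0.0618). In the authors' deposited table neither was called (adjusted p = 0.364 for Epn1 and 0.06 for Dnm2).

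Of the tested receptor glycosylation and cleavage genes 28.6% and 25% were called, against 43.8% of all tested genes. With values as deposited those called were raised. Besides Rfng, the protease gene Furin, at 17.2 ± 0.444 FPKM with exosomes and 18.5 ± 0.656 FPKM with PBS, was not called (adjusted p = 0.111) but was lowered with median ratio scaling (0.0465) and in the authors' deposited table (0.00487). Of 7 tested glycosylation genes 2 were raised. Gxylt2, which adds xylose to O-glucose on the receptor, was 23.4 ± 0.251 FPKM with exosomes and 18.8 ± 1.66 FPKM with PBS (adjusted p = 0.00393). Pofut1, which adds the O-fucose that fringes extend, was 9.62 ± 0.270 FPKM with exosomes and 8.18 ± 0.478 FPKM with PBS (adjusted p = 0.0131). Of 8 tested cleavage genes 2 were raised, and both encode gamma-secretase subunits. Psenen was 72.0 ± 4.25 FPKM with exosomes and 61.2 ± 3.82 FPKM with PBS (log2 change 0.23 ± 0.06 SE, adjusted p = 0.0111). Ncstn was 22.6 ± 1.18 FPKM with exosomes and 20.1 ± 0.815 FPKM with PBS (adjusted p = 0.0337). The Ncstn call ended without exosome replicate 1 or 2 (adjusted p = 0.111 and 0.0818) and without PBS replicate 1 or 3 (0.114 and 0.0798), and also with no filter (0.0587), TPM scaling (0.0707) or median ratio scaling (0.0773). In the authors' deposited table Gxylt2 was raised (adjusted p = 0.00822), and Pofut1 (0.0543), Psenen (0.105) and Ncstn (0.281) were not called. Adam10 and Adam17, the metalloproteases, were 23.7 ± 1.49 and 18.7 ± 0.248 FPKM with exosomes and 22.0 ± 0.796 and 18.2 ± 0.230 FPKM with PBS, and neither was called (adjusted p = 0.173 and 0.543).

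In the nucleus, 25% of the tested coactivator genes and 21.4% of the corepressor genes were called, against 43.8% of all tested genes. Of 8 tested coactivator genes 2 were raised. Kat2b, an acetyltransferase, was 12.2 ± 0.426 FPKM with exosomes and 8.49 ± 0.622 FPKM with PBS (log2 change 0.48 ± 0.06 SE, adjusted p = 0.000268). Maml2, a Mastermind protein, was 5.47 ± 0.140 FPKM with exosomes and 4.76 ± 0.331 FPKM with PBS (adjusted p = 0.0458), a call that ended without each exosome library in turn and without PBS replicate 1 or 3 (0.0765 to 0.143), and also with no filter (0.0619), TPM scaling (0.0833) or median ratio scaling (0.0864). Maml2 was not called in the authors' deposited table (adjusted p = 0.268). Ep300 and Kat2a, also coactivator genes, were not called (limma adjusted p = 0.0911 and 0.0717). Both were lowered with median ratio scaling (0.0431 and 0.0402) and in the authors' deposited table (0.015 and 0.00694). Of 14 tested corepressor genes 1 was raised and 2 were lowered. Cir1, which binds RBPJ, was 9.71 ± 0.438 FPKM with exosomes and 7.38 ± 0.430 FPKM with PBS (adjusted p = 0.00122). Spen, a large corepressor that also binds RBPJ, was 3.40 ± 0.140 FPKM with exosomes and 4.57 ± 0.449 FPKM with PBS (log2 change −0.34 ± 0.07 SE, adjusted p = 0.00436). The Groucho-type Tle1 was 1.86 ± 0.0695 FPKM with exosomes and 2.31 ± 0.183 FPKM with PBS (adjusted p = 0.0306), a call that ended without exosome replicate 2 or 3 and without PBS replicate 1 or 2 (0.0825 to 0.0859). The corepressor gene Tle3 was not called (limma adjusted p = 0.082). It was lowered with median ratio scaling (0.0373) and in the authors' deposited table (0.00544).

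Of 12 tested genes of receptor turnover and inhibition 3 were raised and 1 was lowered, so 33.3% were called against 43.8% of all tested genes. Dtx4, a Deltex ubiquitin ligase, was 6.74 ± 0.493 FPKM with exosomes and 4.16 ± 0.601 FPKM with PBS (log2 change 0.59 ± 0.09 SE, adjusted p = 0.000748). Dtx3l, of the same family, was 2.55 ± 0.199 FPKM with exosomes and 1.52 ± 0.160 FPKM with PBS (0.50 ± 0.07 SE, adjusted p = 0.000774). Numbl, a relative of the Notch inhibitor Numb, was 14.5 ± 0.565 FPKM with exosomes and 12.7 ± 0.891 FPKM with PBS (adjusted p = 0.0306). Its call ended without each exosome library in turn and without PBS replicate 1 or 3 (0.0537 to 0.116), and also with no filter (0.059) or median ratio scaling (0.0605). Numbl was not called in the authors' deposited table (adjusted p = 0.303). Cdk8, the Mediator kinase that marks the Notch intracellular domain for breakdown, was 12.1 ± 0.479 FPKM with exosomes and 14.4 ± 0.194 FPKM with PBS (adjusted p = 0.00391). Of the wider Hes family, 2 genes were tested. Bhlhe40, a repressor of the clock and hypoxia responses, showed the largest change of the list, at 11.5 ± 0.259 FPKM with exosomes and 33.0 ± 2.29 FPKM with PBS (log2 change −1.45 ± 0.06 SE, adjusted p = 4.84e-07). Hes6, which can counteract Hes1, was 6.11 ± 0.259 FPKM with exosomes and 4.45 ± 0.218 FPKM with PBS (0.38 ± 0.06 SE, adjusted p = 0.000842). Bhlhe41, under the filter and not tested, averaged 0.607 ± 0.167 FPKM with exosomes and 0.949 ± 0.0921 FPKM with PBS. In the authors' deposited table Bhlhe41 was lowered (adjusted p = 0.00145).

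**Figure D4:**
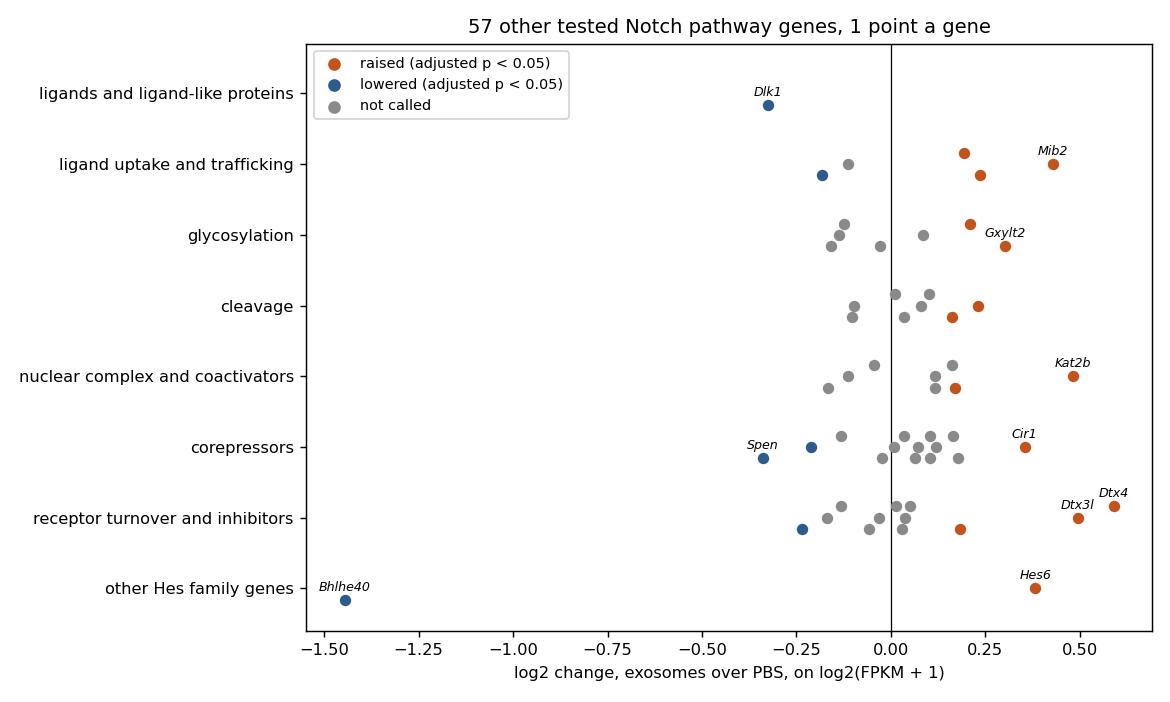
Log2 change (exosomes over PBS, on log2(FPKM + 1)) of the 57 other tested pathway genes, 1 point a gene, in rows by role; colours mark 14 raised, 6 lowered and 37 uncalled genes, and called genes beyond 0.3 are named. Most points lie near 0, and Bhlhe40 at −1.45 stands apart.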

How the data were processed

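Groups and replicate numbers came from the sample titles, and library columns were matched through the sample numbers in the labels. The authors deposited expression values per library that are read here as FPKM; the headers say only expression, and the unit was inferred from Cufflinks in the submitters' processing notes and from unequal column sums. Per the file headers the deposited table also holds DESeq's mean normalized count signal of each group, a linear fold (ratio, exosomes over PBS), the p-value and the adjusted p-value. For the authors' processing, those notes give mm9 as the build and list HISAT2, Bowtie2, HTSeq, StringTie and Cufflinks, SAMtools, Trimmomatic and DESeq, with no version or role. Libraries came from a stranded mRNA kit, per the labels' protocols, and whether counting used strand is not stated in any source used. Annotated antisense or opposite-strand genes overlap Notch1, Notch3, Dll1 and Rbpj, and Notch2 overlaps same-strand transcripts, so these values are uncertain. Gene names that a spreadsheet had turned into dates were repaired through Entrez identifiers in 27 rows.

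Testing used limma 3.58.1 in R 4.3.3 on log2(FPKM + 1) for genes that reached 1 FPKM in 3 libraries, with a variance trend, robust estimation, no covariate besides group and two-sided p-values adjusted by Benjamini-Hochberg. A fold change on that scale understates the change of low genes. No counts per library were among the columns, so no count model was fitted. Depth came from the steps of the authors' group means of scarce genes, which gave whole reads in 300 of 300 sampled genes of each group (tolerance 2e-05). The members and lists were chosen with earlier results of these data known. All members were named, and of the other pathway genes up to 3 called genes of smallest p per role. Mib1, Numbl, Rfng, Furin, Ep300, Kat2a, Tle3, Notch4, Adam10, Adam17, Bhlhe41 and the near-absent target genes were added after their values were seen. A planned comparison of protein sequences was not made.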

Additional observations from a re-analysis of the deposited data

How the results depend on the processing

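Alternatives were other pseudocounts (0.1 and 0.5), no filter or a filter at 5 FPKM, 3 other scalings, plain variance estimation, a replicate block and leaving out each library. Notch3, Hes1 and Rbpj kept their direction and call, and Notch1, Notch2 and Jag1 their direction and lack of one, wherever they were tested. Lfng, not called in any, ranged from −0.23 to 0.025 on the log2 scale when 1 library was left out. The fits that left out a library kept the filter set on all 6 libraries. Without any 1 of its 3 exosome libraries Notch3 would miss that filter, so its call there is no separate check. The calls of Notch3 and Hes1 stay descriptions in every setting, since the group with the higher level met the filter alone. At 5 FPKM only Notch2 and Rbpj were tested, leaving 0 members raised and 1 lowered by construction. With median ratio scaling 12 other pathway genes were lowered, and 6 with values as deposited. Over all tested genes 2276 and 1889 were lowered in these settings. Deviations of same-numbered libraries correlated at −0.120, −0.0212 and −0.295, so the numbers do not pair them. With the replicate block 1 member was raised and 2 were lowered (limma adjusted p = 0.000977 for Notch3, 0.000136 for Hes1 and 0.00101 for Rbpj). Of the other pathway genes 11 were raised and 5 lowered, against 14 and 6 without the block. Calls over all tested genes fell too, to 2288 raised and 1626 lowered from 2612 and 1889. Ncstn (0.0583), Maml2 (0.0808), Numbl (0.057) and Tle1 (0.0568) were no longer called with the block. Few or no counted reads limit what can be said of Dll1, Hey1 and Heyl.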
